A study of Canis lupus familiaris with 18 samples.

Results

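Genes that present antigen through MHC class II were followed across 18 canine primary osteosarcomas, malignant bone tumours whose cells lay down bone matrix. They were found as every probe set that the platform annotation assigned to CD74, DLA-DRA, CIITA or CTSS alone, or to any other single symbol starting with DLA-D or HLA-D. This gave 11 genes of the 15115 named on the array, measured by 21 of its 42924 probe sets other than controls. The rule reads gene names and no levels. The tumours came from 9 dogs with a normal and 9 dogs with an increased concentration of alkaline phosphatase (ALP) in serum, an enzyme released into blood mainly by bone and liver. Each tumour was run on 1 Affymetrix canine array, the tissue had been snap frozen at surgery, biopsy or necropsy, and no normal tissue was included. The labels give neither age, breed, treatment and tumour site nor the procedure for each tumour. All levels below are log2(signal + 16), and the fixed offset understates the change of dim probe sets.

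MHC class II molecules are surface proteins that show peptides from engulfed material to CD4 T cells. They are pairs of an alpha and a beta chain. In human and mouse they are made mainly by macrophages, dendritic cells and B cells, and can be induced on other cells by interferon gamma. In the endoplasmic reticulum they are held by CD74, the invariant chain, which cathepsin S (CTSS) later cuts away. The DM pair then helps to load a peptide, and the DO pair restrains DM. The coactivator CIITA switches on CD74 and most class II genes together with the RFX and NF-Y factors bound to the promoters. Most of these roles were worked out in human and mouse cells, and the dog genes carry the prefix DLA. The beta chain that pairs with DLA-DRA is named HLA-DRB1 in the annotation, with DLA-DRB1 among its synonyms in RefSeq.

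The deposited log2 values had array medians from 6.25 to 6.31, and arrays correlated by rank at 0.928 to 0.980. The actin probe sets at the 3' end exceeded those in the middle by 1.39 ± 0.17 (SD, n = 9) with normal and 1.79 ± 0.29 (SD, n = 9) with increased ALP. This measure of RNA quality thus differed by ALP group (exact permutation p = 0.00313, two-sided). The same measure at the GAPDH probe sets did not detectably differ (exact permutation p = 0.441). It was 0.34 ± 0.15 (SD, n = 9) with normal and 0.41 ± 0.23 (SD, n = 9) with increased ALP. The GAPDH difference between the 3' and 5' ends ran from 1.05 to 1.56 with normal and from 0.99 to 2.38 with increased ALP. Its highest values were in increased ALP replicates 6, 3 and 5, and its difference between the groups was not tested. Of the bone genes, COL1A1, which encodes a chain of type I collagen, had a median of 14.33 and osteopontin (SPP1) one of 13.02, while the bone sialoprotein gene IBSP ranged from 4.85 to 14.21. Skeletal muscle genes stood far above their mean in normal ALP replicate 1, by 4.90 averaged over 7 genes, and in increased ALP replicate 4, by 3.05. Of the 21 probe sets, 20 lay above the 40th percentile of mean level and were tested in fits across all genes, and the 1 probe set of DLA-DOB was not.

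CD74 varied widely between tumours. At its brightest probe set it had a lowest level of 9.66, a median of 11.71 and a highest level of 12.45 with normal ALP. With increased ALP the lowest was 10.04, the median 11.75 and the highest 13.30. The groups overlapped, with 3 of the 9 tumours with increased ALP above every tumour with normal ALP, and the deposited signal spanned 12.7-fold over all 18.

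The classical chains spanned similar ranges. DLA-DRA, the alpha chain of the DR molecule, ran from 10.30 over a median of 12.22 to 12.88 with normal and from 11.11 over 12.09 to 13.18 with increased ALP. HLA-DRB1, its beta chain, ran from 11.13 over 12.92 to 13.39 and from 11.72 over 13.06 to 13.87. For both chains 1 tumour with increased ALP exceeded all tumours with normal ALP. At the low end 3 tumours with normal ALP lay below all tumours with increased ALP, and the groups otherwise overlapped.

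DLA-DQA1, the alpha chain of the DQ molecule, ran from 8.95 over a median of 10.92 to 12.19 with normal ALP and from 8.42 over 10.41 to 12.31 with increased ALP. DLA-DQB1, its beta chain, ran from 8.46 over 10.28 to 11.63 and from 8.91 over 10.20 to 12.15. The signal of DLA-DQA1 spanned 15.5-fold over all tumours and that of DLA-DQB1 13.5-fold, against 7.47-fold for DLA-DRA and 6.71-fold for HLA-DRB1.

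The peptide editors DM and DO came next along the pathway. DLA-DMA ran from 8.38 over a median of 9.52 to 10.58 with normal and from 8.73 over 9.80 to 11.04 with increased ALP. DLA-DMB ran from 8.0 over 9.01 to 9.95 and from 8.22 over 8.98 to 10.73. In each of these genes 1 tumour, increased ALP replicate 2, stood above the highest tumour with normal ALP. DLA-DOA at its brighter probe set stayed between 6.77 and 7.40 over all tumours, and DLA-DOB between 5.27 and 6.07. The dimmer DLA-DOA probe set ran more widely, from 5.51 to 8.15, a 9.10-fold span of signal against 1.64-fold at the brighter one. The level of DLA-DOB lay below the filter of 6.15, and detection calls were not used here.

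CIITA, at its brighter probe set, ran from 7.21 over a median of 7.49 to 7.81 with normal ALP and from 7.22 over 7.51 to 7.66 with increased ALP, a 1.58-fold span of signal over all 18 tumours. CTSS ran from 11.31 over 12.62 to 13.24 with normal ALP and from 11.59 over 12.95 to 13.46 with increased ALP, a 4.45-fold span. At the brightest probe set of each gene, the standard deviation over tumours exceeded that of 96.8% of tested probe sets for CD74 and 82.5% for CTSS. For CIITA and DLA-DOA it exceeded only 9.68% and 15.8%. At the dimmer probe sets of CIITA and DLA-DOA the shares were 45.7% and 81.1%. The signal of the dimmer CIITA probe set spanned 3.82-fold. Of the 20 tested member probe sets, 17 had a standard deviation above the median of all tested probe sets (0.36).

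**Figure D1:**
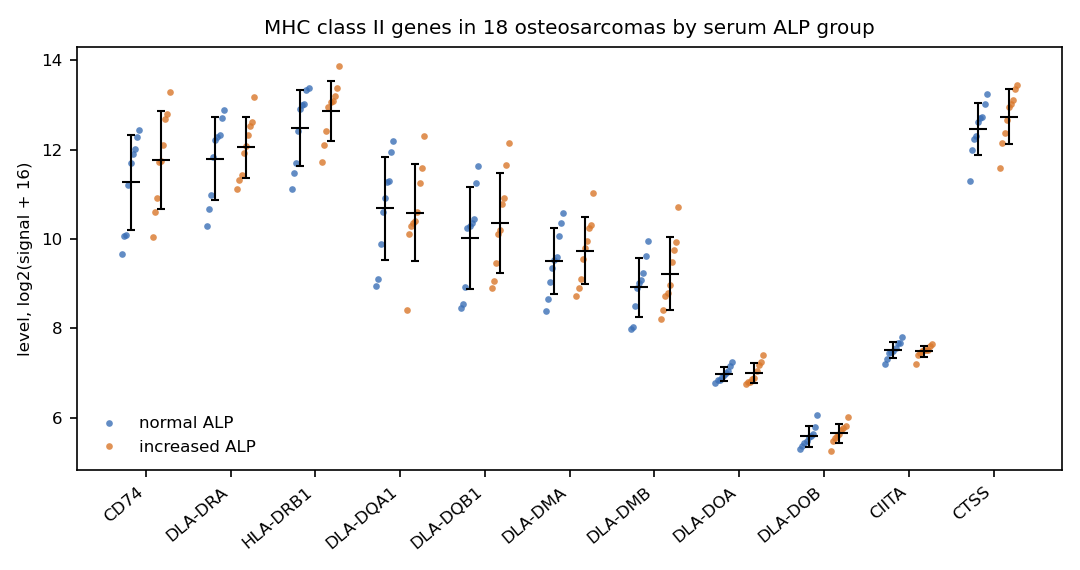
Level of each MHC class II gene, as log2(signal + 16), at its probe set of highest mean. Points are tumours (9 per ALP group), bars are the mean and SD. The 2 groups overlap for every gene, and CIITA, DLA-DOA and DLA-DOB vary least.

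The same tumours stood high or low across most of the genes. Increased ALP replicate 2 was the highest tumour for 8 of the 11 genes and at 16 of the 21 probe sets, and it was among the top 3 for 9 genes. Normal ALP replicates 9 and 2 were among the top 3 for 7 and 6 genes, and increased ALP replicate 1 for 5 genes. At the other end stood normal ALP replicates 6, 7 and 8 and increased ALP replicate 4, which were among the bottom 3 for 7, 8, 7 and 7 genes. Both ends thus held tumours of both ALP groups. Increased ALP replicate 4 was also 1 of the 2 tumours high in skeletal muscle genes, whose part in its low class II levels was not tested, while normal ALP replicate 1, the other, had a mean rank of 8.45 of 18 over the 11 genes, where 1 is the highest.

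**Figure D2:**
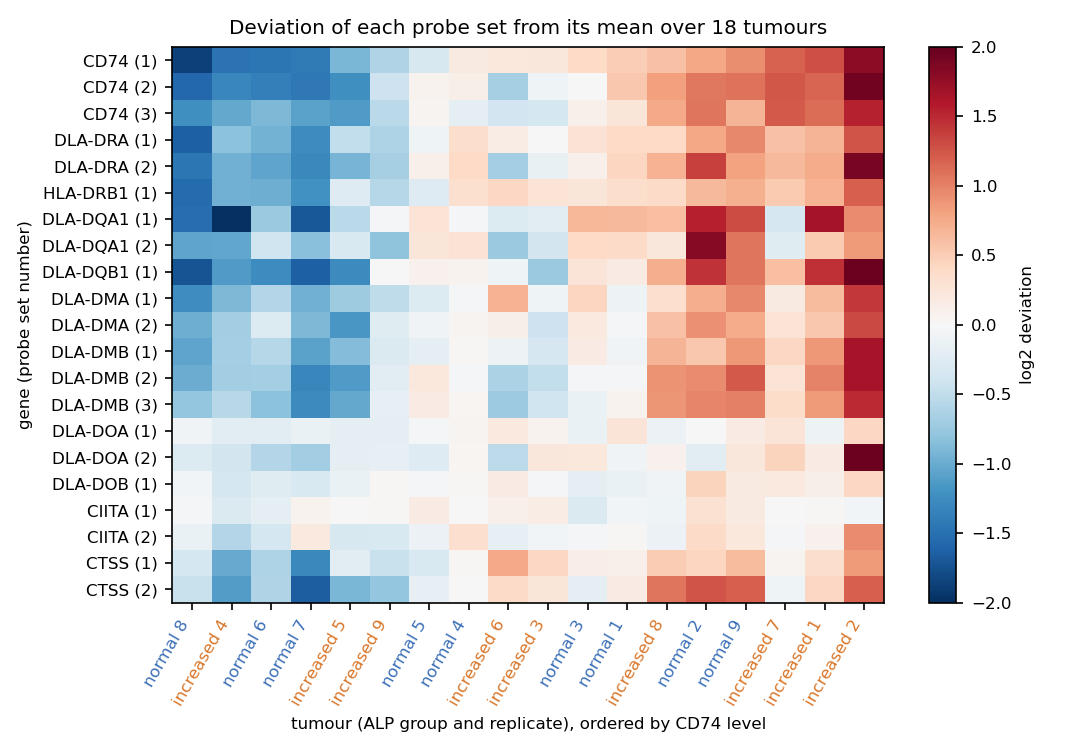
Deviation of each of the 21 probe sets (rows) from its own mean over 18 tumours (columns, ordered by the CD74 level), as a log2 difference. Rows of CD74, DR, DQ, DM and CTSS run from blue to red together, from normal ALP replicate 8 at the left to increased ALP replicate 2 at the right, and CIITA (1) and DLA-DOA (1) stay pale.

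CD74, the DR and DQ chains and the DM pair rose and fell together across the tumours. CD74 followed DLA-DRA with r = 0.971 and rho = 0.957, and HLA-DRB1 with r = 0.971 and rho = 0.942 (permutation p = 1e-05 for each, the smallest that 100000 permutations can give). The DR chains followed each other with r = 0.984 and rho = 0.969. Over the 21 pairs among CD74, DLA-DRA, HLA-DRB1, DLA-DQA1, DLA-DQB1, DLA-DMA and DLA-DMB, r lay between 0.818 and 0.984 and rho between 0.775 and 0.971. All 21 passed after Benjamini-Hochberg adjustment over the 55 pairs of 11 genes, with permutation p-values of at most 8.8e-05 after adjustment. Within the tumours with normal ALP alone r lay between 0.938 and 0.997, and within those with increased ALP between 0.736 and 0.981, and all 21 pairs passed in each group by exact permutation. On leaving out the 2 tumours farthest from the median of the first gene of a pair, r was still at least 0.763. These are bulk tissue values, in which fewer cells of a type and less RNA per cell cannot be told apart.

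DLA-DQA1 had the lowest r with CD74 among these 7 genes, a difference that was not tested, with r = 0.836 and rho = 0.816 against CD74. Its 2 probe sets correlated at 0.877 with each other, against 0.941 for those of DLA-DRA and 0.932 for those of DLA-DMA. Whether probes meant for 1 class II chain also bind a related chain was not tested, so values of the DR and DQ chains are uncertain to that extent.

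CTSS varied with the same genes. It followed CD74 with r = 0.835 and rho = 0.804 (permutation p = 1e-05 and 9e-05), HLA-DRB1 with r = 0.877 and DLA-DMA with r = 0.875. Of its 10 pairs with other member genes 9 passed, all but that with CIITA. The DO pair also varied with them. DLA-DOA at its brighter probe set correlated with CD74 at r = 0.699 and rho = 0.666, and passed in 8 of its 10 pairs, while DLA-DOB correlated with CD74 at r = 0.737 and rho = 0.688 and passed in all 10. Within the tumours with normal ALP alone, 0 of the 10 DLA-DOA pairs and 3 of the 10 DLA-DOB pairs passed by exact permutation. Within those with increased ALP, 6 and 8 passed. The 2 probe sets of DLA-DOA correlated at only 0.645 with each other. Whether the DO genes follow CD74 less closely than the DM genes do was not tested.

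The 2 probe sets of CIITA gave different values against the other member genes. At the brighter one its r with CD74 was 0.273 and its rho 0.220 (permutation p = 0.270 and 0.378), and its r with DLA-DRA was 0.266. Only 1 of its 10 pairs passed, that with DLA-DOB, at r = 0.606 and rho = 0.569. The other CIITA probe set, dimmer but more variable, correlated with CD74 at 0.649 and with the 19 probe sets of other member genes at 0.511 to 0.732. The 2 CIITA probe sets correlated with each other at 0.356 (rho = 0.344, permutation p = 0.146). In the fit across all genes neither CIITA probe set passed against CD74 (limma, adjusted p = 0.664 and 0.0854, unadjusted 0.355 and 0.00216). That adjustment runs over 25753 probe sets and the one for gene pairs over 55, so calls from the 2 are not alike. The dimmer one had a median of 6.15 over the 18 tumours, close to the filter on dim probe sets.

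**Figure D3:**
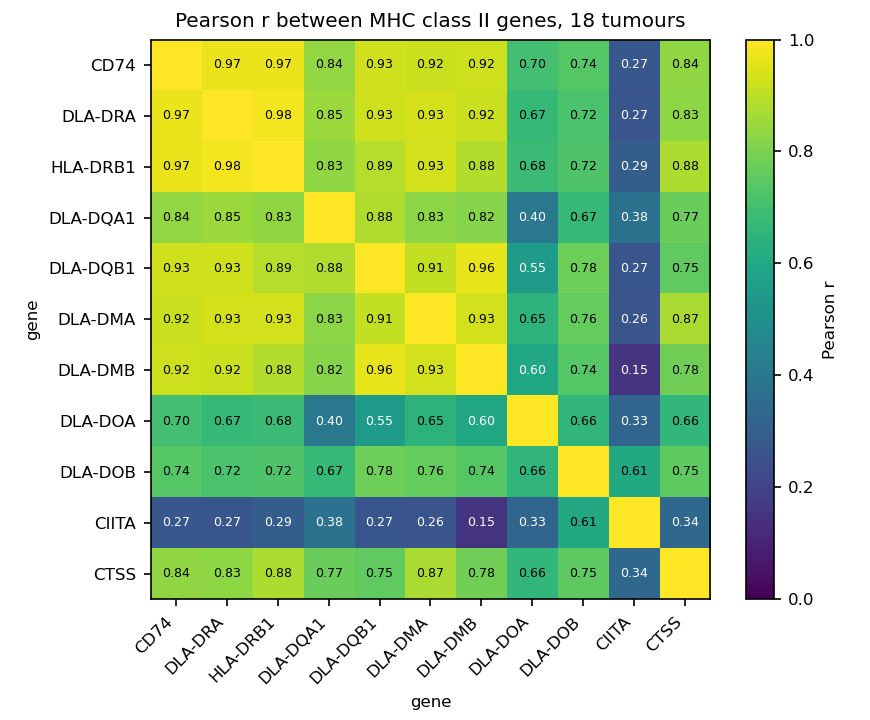
Pearson r between the 11 genes over 18 tumours, each gene at its probe set of highest mean. The block of CD74, DR, DQ and DM genes lies at 0.82 or above, CTSS between 0.75 and 0.88 against that block, and the CIITA row is lowest.

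The agreement of the members was set against all other genes by regressing every tested probe set on the brightest CD74 probe set. Of the 19 other member probe sets tested, 16 were higher where CD74 was higher at an adjusted p under 0.05 and 0 were lower (limma, two-sided). Over all 25753 probe sets, 0.955% were called higher and 0.384% lower at that adjusted threshold. At an unadjusted p under 0.05, 18 members were higher and 0 lower. No share of all probe sets at the unadjusted threshold is given here or for the gene lists below. Counts at that threshold therefore cannot be set against all genes and are a description only. The median r with CD74 was 0.857 over the members, 2 of which are further CD74 probe sets, and -0.0064 over all tested probe sets. The 3 members that did not pass were both CIITA probe sets and the brighter one of DLA-DOA (adjusted p = 0.104). The number of calls over all genes moved with single tumours. Without increased ALP replicate 2 it fell from 246 to 64 higher, while 14 of the 19 members were still called. It was 155 without increased ALP replicate 4, 386 without normal ALP replicate 2 and 398 without increased ALP replicate 8.

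Many macrophage genes varied with CD74. Of 15 tested macrophage genes, 10 were higher where CD74 was higher, with a median r of 0.786, against 0.955% of all probe sets. AIF1, a calcium-binding protein of macrophages, ran from 7.87 over a median of 9.34 to 10.52 and had r = 0.895 and rho = 0.853 (permutation p = 1e-05 and 2e-05). The lysozyme gene LYZ ran from 10.21 over 12.15 to 13.01 and had r = 0.891 and rho = 0.884. The complement genes C1QA, C1QC and C1QB stood at r = 0.864, 0.834 and 0.807, the haemoglobin scavenger receptor CD163 at 0.823 and the mannose receptor MRC1 at 0.773. The other 5 did not pass. CSF1R, the receptor for the macrophage growth factor CSF1, stood at -0.053, CD14, a coreceptor for lipopolysaccharide, at 0.305, and CD68, a lysosomal protein that osteoclasts also carry, at -0.435. With each array left out in turn, between 8 and 10 of the 15 were called.

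The mean deviation of the 15 macrophage genes lay between -0.94 and 1.26 in the tumours with normal ALP and between -0.70 and 1.05 in those with increased ALP. It followed DLA-DMA at r = 0.877 and rho = 0.878, CTSS at r = 0.827 and rho = 0.831, and CD74 at r = 0.779 and rho = 0.787 (permutation p = 1e-05, 5e-05 and 0.00015 for r). Within the groups, its r with CD74 was 0.714 with normal and 0.844 with increased ALP (exact permutation p = 0.0261 and 0.00585). With this mean in the fit, 118 of all tested probe sets were called higher with CD74 and 165 lower. Of the 19 members, 8 were still called against CD74. These were the other 2 CD74 probe sets, both of DLA-DRA, those of HLA-DRB1 and DLA-DQB1, and the brightest of DLA-DMA and of DLA-DMB. CTSS was not among them, with a slope of 0.27 ± 0.10 (SE, adjusted p = 0.206), nor was DLA-DQA1, at 0.69 ± 0.21 (SE, adjusted p = 0.117). The slopes are log2 units per log2 unit of CD74, and that of DLA-DRA was 0.64 ± 0.07 (SE, adjusted p = 0.00066) with the macrophage mean and 0.72 ± 0.05 without it. This fit was chosen after seeing the data.

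CD86 and CD80, the costimulatory ligands of antigen-presenting cells, were higher where CD74 was higher, at r = 0.813 and 0.697 (adjusted p = 0.00791 and 0.0483), and the other 4 of the 6 tested genes of costimulation and the CD4 T cell side (CD40, CD83, CD4 and LAG3) were not called. With 12 of the 18 arrays left out in turn, only 1 of the 6 was called. Of 7 tested regulators 0 passed (1 lower at an unadjusted p under 0.05 in limma), and their median r was -0.12. RFX5, a subunit of the RFX factor, stood at 0.260, RFXANK at 0.047 and NFYA, a subunit of NF-Y, at -0.577 (adjusted p = 0.15). Of 6 genes of endosomal processing and surface control 0 passed (2 higher at an unadjusted p under 0.05). Among them were the lysosomal protease CTSB at 0.559, the asparaginyl protease LGMN at 0.490, the thiol reductase IFI30 at 0.176 and CTSD at -0.243.

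Of 9 tested genes of the interferon gamma pathway 0 were called (5 higher at an unadjusted p under 0.05 in limma), with a median r of 0.487, a highest value of 0.673 for the receptor chain IFNGR2 (adjusted p = 0.0808) and 0.573 for the tryptophan-degrading enzyme IDO1. Of 14 genes of class I presentation 2 were called. These were the immunoproteasome subunit PSMB8 at r = 0.763 and the class I light chain B2M at 0.758 (adjusted p = 0.0204 and 0.0265), and the median of the list was 0.246. No gene of the list was called without increased ALP replicate 1 or 2, and 1 was called without normal ALP replicate 6.

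Of 9 B and plasma cell genes on the array only 3 passed the filter on dim probe sets. Of these, 0 were called (1 higher at an unadjusted p under 0.05 in limma), with POU2AF1, a coactivator of B cells, at r = 0.513 and JCHAIN, which joins antibody molecules, at -0.049. Of 9 dendritic cell genes 4 passed the filter and 1 was called, the transcription factor BATF3 at r = 0.755 (adjusted p = 0.0204). The BATF3 call was lost on leaving out increased ALP replicate 2, and also on leaving out normal ALP replicate 8. T and NK cell genes had a median r of 0.574 over 7 tested genes, of which 1 was called, the T cell receptor component CD3E at 0.737 (adjusted p = 0.0465), and the call was lost with 13 of the 18 arrays left out in turn.

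Of 6 tested osteoclast genes 0 were called (3 lower at an unadjusted p under 0.05 in limma). All 6 had r below 0, from -0.663 for the acid phosphatase ACP5 (adjusted p = 0.0648) to -0.296 for the ion exchanger CLCN7. Of 10 osteoblast genes 0 were called (3 lower at an unadjusted p under 0.05), with a median r of -0.407 and a lowest of -0.646 for the matrix protein DMP1 (adjusted p = 0.0803). The osteoblast list was not uniform in sign, with the collagen genes COL1A1 and COL1A2 above 0, at 0.261 and 0.043. Cell division genes had a median of -0.338, neutrophil genes of 0.104, endothelial genes of 0.371 and skeletal muscle genes of -0.052, with 0 called in each. In these 4 lists, 2 cell division genes were lower and 4 endothelial genes higher at an unadjusted p under 0.05 in limma, and 0 in the others. CD74 did not detectably follow the actin difference (r = 0.0958, rho = 0.166, permutation p = 0.702 and 0.508) or any of 5 further measures (4 of array quality and the mean of the muscle genes), with an adjusted p of 0.879 for r in each. Within the 9 tumours with increased ALP, r with the muscle genes was -0.735 (exact permutation p = 0.000606, 0.00364 adjusted over the 6 measures), against 0.415 within normal ALP (exact permutation p = 0.281). Increased ALP replicate 4 had both the highest muscle mean of its group, 3.05, and the lowest CD74 level, 10.04. By rank, rho in that group was -0.883 (exact permutation p = 0.00308). The difference between the 2 groups was not tested.

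The calls on list genes above are limma's, adjusted over all probe sets. Permutation p-values adjusted over the 61 named list genes alone were under 0.05 for 21, of which 12 were not called by limma. The 12 included ACP5 at 0.0163, DMP1 at 0.0222, IFNGR2 at 0.0142 and NFYA at 0.0423 by permutation. Most of the 61 were picked by their r in the same tumours, so these p-values cannot serve as a separate test.

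**Figure D4:**
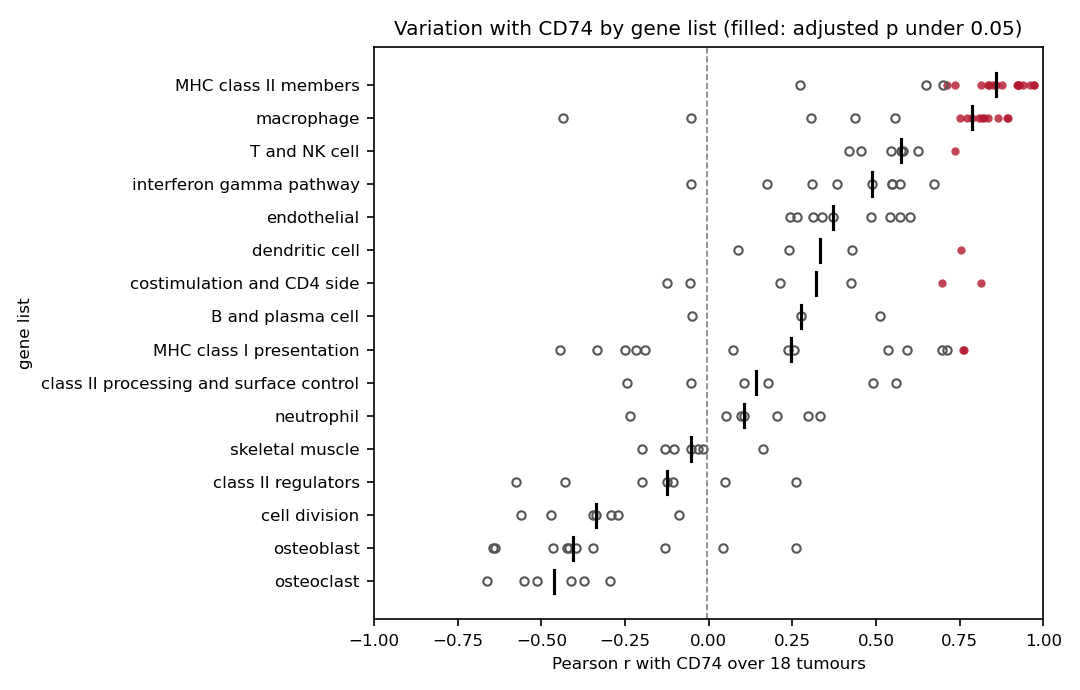
Pearson r with CD74 over 18 tumours for the tested genes of each list and for the other 19 member probe sets. Filled points passed at an adjusted p under 0.05 over all probe sets, vertical bars are list medians, and the dashed line is the median of all probe sets (-0.0064). Member and macrophage medians stand at 0.857 and 0.786, osteoblast and osteoclast medians at -0.407 and -0.462.

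Over 10707 genes with 1 symbol, each at its brightest tested probe set, the 10 of highest r were CD37, AIF1, LYZ, LOC478984, DENND2D, C1QA, TLR4, VAV1, XDH and FGR. CD37, a tetraspanin of leukocytes, led with r = 0.908 and rho = 0.907, and it ran from 7.02 over a median of 8.19 to 9.39. TLR4, the lipopolysaccharide receptor, stood at 0.863, VAV1, a signalling factor of blood cells, at 0.862 and FGR, a kinase of myeloid cells, at 0.854. The 5 of lowest r were BCS1L, a mitochondrial assembly factor, at -0.823, TOM1L1 at -0.814, ACSL3, which activates fatty acids, at -0.800, CLCN4, an ion exchanger, at -0.793 and IFITM10 at -0.786. These genes were picked by their r in the same tumours, and their values are a description without a test.

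Between the serum ALP groups no class II gene could be called different. Of the 20 tested probe sets 16 were higher and 4 lower with increased ALP, where 51.5% of all tested probe sets were higher. The median difference was 0.20 over the members and 0.0066 over all tested probe sets, on the log2 scale and as increased minus normal ALP. CD74 stood at 11.27 ± 1.06 (SD, n = 9) with normal and 11.77 ± 1.09 (SD, n = 9) with increased ALP. Its difference of 0.50 ± 0.47 (SE, 95% interval -0.48 to 1.49) had an exact permutation p of 0.329, and the ratio of the groups could lie anywhere from 0.716 to 2.81 within that interval.

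HLA-DRB1 was higher by 0.38 ± 0.34 (SE, exact permutation p = 0.307), DLA-DQB1 by 0.34 ± 0.50 (p = 0.524 by exact permutation), DLA-DMB by 0.30 ± 0.33 (exact p = 0.404), CTSS by 0.28 ± 0.26 (exact p = 0.333), DLA-DRA by 0.26 ± 0.36 (exact p = 0.511) and DLA-DMA by 0.23 ± 0.33 (exact p = 0.512). All of these fell short of the test, and single arrays moved them. Without normal ALP replicate 8 the difference of DLA-DRA was 0.068 and that of HLA-DRB1 0.21. Leaving out increased ALP replicate 2 gave 0.12 for DLA-DQB1, 0.070 for DLA-DMA and 0.11 for DLA-DMB, and leaving out normal ALP replicate 7 gave 0.14 for CTSS. With the actin difference as covariate DLA-DQB1 stood at 0.71 and DLA-DMB at 0.62. The 4 probe sets lower with increased ALP were both of DLA-DQA1, at -0.09 ± 0.49 and -0.42 ± 0.34 (SE), and both of CIITA, at -0.03 ± 0.09 and -0.12 ± 0.15. The direction of DLA-DQA1 at its brighter probe set turned without each of 3 single arrays, to 0.18 without increased ALP replicate 4, and to 0.25 without both tumours high in skeletal muscle genes. The smallest exact p was 0.187, for the dimmer DLA-DOA probe set, which was higher by 0.36 ± 0.25 (SE) and had its highest level, 8.15, in increased ALP replicate 2.

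With limma, 0% of 25754 probe sets were called at an adjusted p under 0.05, and so 0 of 20 members were, with a smallest adjusted p of 0.854 among them. At an unadjusted p under 0.05 there were 6.14% of all probe sets and again 0 of 20 members. With the macrophage gene mean in the fit the CD74 difference was 0.31 ± 0.31 (SE), with the actin difference 0.67, and without the 2 tumours high in skeletal muscle genes 0.81, with no call in any. The members vary together, so that the 16 of 20 in one direction do not amount to 16 separate observations. The SD within groups had a median over the 21 probe sets of 0.79 with normal and 0.75 with increased ALP.

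**Figure D5:**
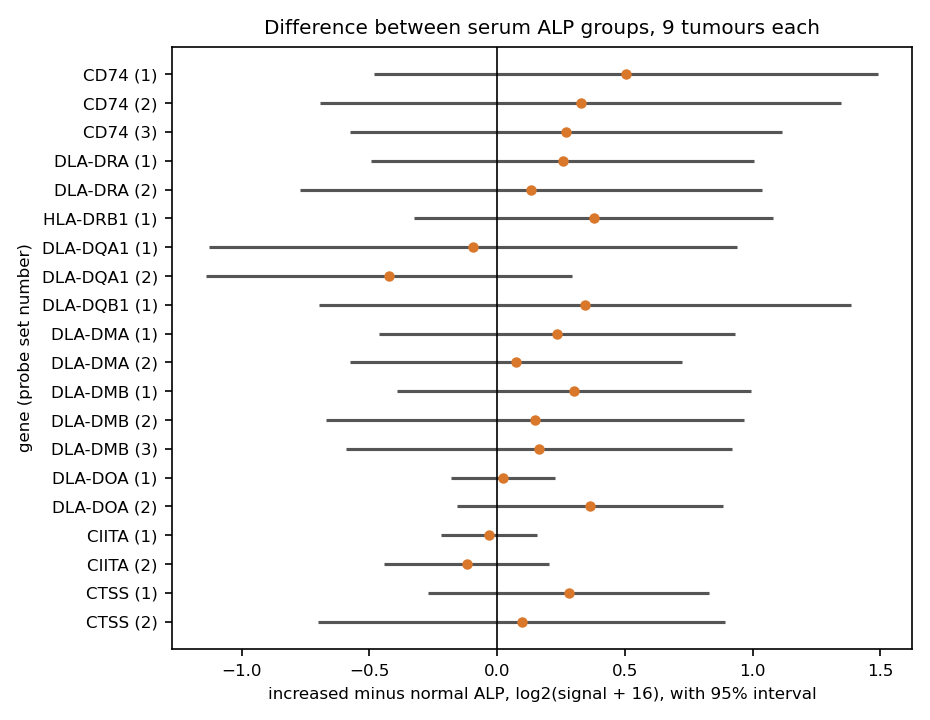
Difference between tumours with increased and normal serum ALP at the 20 tested member probe sets, in log2(signal + 16), as points with limma's 95% interval. Every interval crosses 0, and 16 of the 20 points lie to the right of it.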

How the data were processed

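The deposited table holds log2 signals of 43035 probe sets on 18 arrays, one per tumour, from 2.03 to 15.09. MAS5 stands in the submitters' processing notes with no version and no step, so the summary method and normalization are unsettled. Detection calls were not used here. Levels are log2 of the unlogged signal plus 16. The 111 control probe sets were set aside, and probe sets with a mean below the 40th percentile (6.15) were left out of tests, which left 25754. Of 42924 probe sets, 29254 had 1 symbol, 439 several and 13231 none in the platform annotation, and 27680 were found in the RefSeq table of UU_Cfam_GSD_1.0, used for names only.

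ALP groups were compared, and every probe set was regressed on CD74, with limma 3.58.1 in R 4.3.3 (lmFit, eBayes with trend), two-sided, with Benjamini-Hochberg adjustment over all probe sets and a threshold of 0.05. Single differences used exact permutation of the 18 tumours, correlations 100000 permutations, and within-group correlations exact permutation. The 55 member pairs and 61 named list genes were each adjusted as 1 family. Each gene was taken at its probe set of highest mean. Both fits were tested on simulated data. Named were all members, in each of 15 lists the 2 genes of highest and the 1 of lowest r with CD74 and up to 2 of smallest p between ALP groups, and the 10 highest and 5 lowest other genes. Further named list genes were chosen after their values were seen. The members and lists were chosen with earlier results of these data known. The tissue numbers in the labels were not treated as pairs. The labels do not say whether other material was shared between tumours, so p-values measure the spread between these arrays, whose number limits precision. Python 3.11.15, NumPy 2.4.6, SciPy 1.17.1 and matplotlib 3.10.9 were used. Sequences were not used here.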

Additional observations from a re-analysis of the deposited data

Results flagged for a closer look

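At 2 probe sets 1 tumour lay far from the others of its group, by Dixon's test of the gap to the nearest tumour. At the dimmer DLA-DOA probe set, increased ALP replicate 2 stood at 8.15, with the next tumour of the group at 6.64, a gap of 0.608 of the group's range. At the dimmer CIITA probe set the same tumour stood at 7.14, with the next at 6.28 and a gap of 0.562 of the range. This tumour was also highest at most other member probe sets. Chance flags about 1 in 20 groups, and 42 groups of 9 tumours were examined.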

How the results depend on the processing

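The count of members called between ALP groups was 0 under all 32 alternatives, and so was that over all probe sets. The lowest adjusted p of the 10 tested genes was 0.63. The CD74 difference lay between 0.30 and 0.72 without single arrays and was 0.81 without the 2 arrays high in muscle genes. Without single arrays DLA-DRA lay between 0.068 and 0.39, HLA-DRB1 between 0.21 and 0.52, DLA-DQB1 between 0.12 and 0.54, DLA-DMA between 0.070 and 0.37, DLA-DMB between 0.11 and 0.43 and CTSS between 0.14 and 0.42. Signs turned for DLA-DQA1 (0.056 with array weights, 0.25 without the 2 arrays high in muscle genes, and between -0.31 and 0.18 without single arrays), for DLA-DOA (-0.011 with array weights, -0.0095 without the 2 arrays of highest spike-in signal, -0.0037 with the macrophage mean, -0.026 to 0.058 without single arrays) and for CIITA (0.0087 with quantile normalization, 0.0085 with 75th percentile scaling, -0.072 to 0.0037 without single arrays). Probe sets higher with CD74 numbered 246 and ranged from 64 to 398 without single arrays, and those lower numbered 99 and ranged from 16 to 248. They numbered 112 and 33 without the 2 arrays high in muscle genes and 118 and 165 with the macrophage mean. With no filter 64 were lower. Members called numbered 16, between 14 and 16 without single arrays and 8 with the macrophage mean. The pairs of member genes that passed numbered 45 of 55, and between 43 and 46 without single arrays. Of the 9 pairs of tumours with the same tissue number, 4 correlated above 0.1 (lowest -0.164, highest 0.270) and 0 of 9 matched their own number best. This check cannot exclude a weaker pairing by tissue number. With the number as a replicate block, no gene was called between ALP groups, and 10 probe sets were higher and 1 lower with CD74, 5 of them members. The cause of these changes was not tested, and fewer residual degrees of freedom are part of the block's construction. The settings without 2 arrays and with the macrophage mean were chosen after seeing the data. Signal close to the filter limits DLA-DOB and the dimmer DLA-DOA and CIITA probe sets.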

Other observations

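The class I heavy chain gene DLA88 fell into separate levels at 1 of its 2 probe sets. In 5 tumours, 2 with normal and 3 with increased ALP, its level lay between 4.40 and 4.58. In 2 tumours it lay at 10.35 and 10.47, and in the other 11 between 12.76 and 13.73. Increased ALP replicate 2, the tumour highest in most class II genes, and increased ALP replicate 4, among the lowest, were both among the 5. The second DLA88 probe set ran from 7.86 to 10.45. The cause was not tested.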
